A study of Mus musculus with 18 samples.

Results

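The 10 genes described here drive and gate the G1 phase of the cell cycle. They are the D-type cyclins Ccnd1, Ccnd2 and Ccnd3, their kinase partners Cdk4 and Cdk6, the E-type cyclins Ccne1 and Ccne2, the cyclin-dependent kinase (CDK) inhibitor Cdkn1b (p27), the pocket protein Rb1, and the transcription factor E2f1. Their rows were found by gene symbol, with no threshold on a measured value, and the set was drawn up with earlier results of these data known. All 10 were present among the 55153 genes of the RNA-seq table and in the Ribo-seq tables. Their levels were measured in mouse cerebral cortex at embryonic day 15.5 (E15.5). All samples are labelled C57BL/6, while the study's methods give the floxed lines a mixed strain background and the Emx1-Cre line a pure one. Ctrl mice were wild type. F-cKO mice carried Fto f/f with Emx1-cre, and M-cKO mice carried Mettl3 f/f with Emx1-cre. Each group had 3 RNA-seq and 3 Ribo-seq libraries, 18 in all. Fto removes, and Mettl3 writes, the N6-methyladenosine mark on RNA. Emx1-Cre acts in progenitors of the dorsal telencephalon and their descendants, so other cells of the dissected tissue, such as interneurons, vessels and microglia, keep the floxed gene. The sources do not make clear how many embryos or litters stand behind a library, so p-values measure the spread between libraries.

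In textbook accounts, mitogens raise D-type cyclins, which bind CDK4 or CDK6 and phosphorylate the retinoblastoma protein. Phosphorylation releases E2F factors, which transcribe cyclin E and the genes of DNA replication, and cyclin E with CDK2 completes the phosphorylation. The point at which this loop no longer needs mitogens is the restriction point, and p27 holds cyclin-CDK complexes in check before it. In the embryonic cortex the length of G1 in radial glia and in intermediate progenitors (IPs) is tied to the choice between division and neuronal differentiation, and cyclin D2 is known as the main D-type cyclin of cortical progenitors.

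The genes lie on separate chromosomes except for a few pairs. In mm10, the build named in the submitters' processing notes, with RefSeq GRCm38.p6 gene positions, Ccnd2 spans chr6:127125162-127152188 and Cdkn1b lies on the same chromosome at chr6:134920401-134925525. Ccnd1 spans chr7:144929931-144939831 and Ccne1 chr7:38097984-38107490. Cdk4 spans chr10:127063535-127067288, Cdk6 chr5:3341004-3531008, Ccnd3 chr17:47505051-47599689, Ccne2 chr4:11190433-11204779, E2f1 chr2:154559400-154569892 and Rb1 chr14:73192858-73325951. Ccne1 and Cdkn1b overlap no other annotated gene. The other 8 overlap at least 1, such as Tspan31 at Cdk4, Necab3 at E2f1, Ints8 at Ccne2 and Lpar6 at Rb1. The sources used here do not say if counting took account of strand, so reads from overlapping stretches cannot be told apart.

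RefSeq promoter windows, from 250 bases before to 50 after a start site, were at hand for 6 of the 10 genes (Cdk4, Cdk6, Cdkn1b, Ccne1, Ccnd3 and E2f1). The following 5 are shown because RNA-seq called their genes against Ctrl: Cdk4, Cdk6 and Cdkn1b rose in F-cKO, Ccne1 and E2f1 rose in M-cKO, and Cdk6 fell there. They lie at chr10:127063285-127063584 (plus strand), chr5:3343643-3343942 (plus strand), chr6:134920151-134920450 (plus strand), chr7:38107441-38107740 (minus strand) and chr2:154569377-154569676 (minus strand), and each is written 5′ to 3′ on the strand of its gene. Capitals mark CACGTG, the E-box that MYC and related factors can bind.
Cdk4: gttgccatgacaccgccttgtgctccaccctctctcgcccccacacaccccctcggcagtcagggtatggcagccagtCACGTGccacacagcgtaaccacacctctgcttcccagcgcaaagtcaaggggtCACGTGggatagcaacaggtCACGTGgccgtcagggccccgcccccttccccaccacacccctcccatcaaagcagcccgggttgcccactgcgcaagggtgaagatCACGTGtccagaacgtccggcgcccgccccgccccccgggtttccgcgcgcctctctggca
Cdk6: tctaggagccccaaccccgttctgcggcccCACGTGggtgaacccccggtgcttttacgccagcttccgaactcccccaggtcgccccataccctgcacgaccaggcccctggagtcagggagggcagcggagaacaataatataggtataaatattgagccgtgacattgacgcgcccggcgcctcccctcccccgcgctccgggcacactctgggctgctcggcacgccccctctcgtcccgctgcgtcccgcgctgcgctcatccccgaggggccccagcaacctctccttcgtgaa
Cdkn1b: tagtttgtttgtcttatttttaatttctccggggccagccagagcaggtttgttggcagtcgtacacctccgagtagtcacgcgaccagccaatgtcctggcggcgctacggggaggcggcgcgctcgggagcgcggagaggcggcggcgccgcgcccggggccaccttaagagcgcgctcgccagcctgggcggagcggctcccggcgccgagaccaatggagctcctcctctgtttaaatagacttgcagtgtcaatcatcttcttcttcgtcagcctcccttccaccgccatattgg
Ccne1: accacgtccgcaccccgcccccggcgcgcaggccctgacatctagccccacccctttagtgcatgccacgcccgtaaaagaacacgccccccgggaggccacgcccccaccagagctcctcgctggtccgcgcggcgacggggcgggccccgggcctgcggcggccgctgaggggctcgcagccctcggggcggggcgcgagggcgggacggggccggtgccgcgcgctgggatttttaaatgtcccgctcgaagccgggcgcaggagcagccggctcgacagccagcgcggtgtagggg
E2f1: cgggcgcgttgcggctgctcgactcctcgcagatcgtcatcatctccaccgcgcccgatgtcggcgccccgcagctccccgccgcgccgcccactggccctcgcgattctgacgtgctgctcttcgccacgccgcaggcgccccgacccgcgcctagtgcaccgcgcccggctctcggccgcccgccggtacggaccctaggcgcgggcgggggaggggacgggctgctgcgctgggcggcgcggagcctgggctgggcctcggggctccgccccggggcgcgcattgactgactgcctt
The Cdk4 window held CACGTG 4 times, beginning 172, 118, 98 and 11 bases before the start site, and the Cdk6 window held it once, beginning 220 bases before. The motif reads the same on both strands. Of all 32851 promoter windows of this length, 7.15% held it at least once and 0.0244% (8 windows) at least 4 times. No window of these genes held the E2F motifs TTTCCCGC, TTTCGCGC, TTTGCCGC or TTTGGCGC on either strand, which 2.26% of all windows held. A match describes letters and not binding. The Cdk6 and E2f1 windows lie wholly inside the annotated genes. The stretch before the first annotated base of Cdk6 and of E2f1 was therefore not searched for either motif.

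The libraries were checked before the genes were compared. RNA-seq libraries held 18504094 to 22592406 counted reads, and Ribo-seq libraries 10973699 to 35853227. Fto in RNA-seq was 8.37 to 11.2 FPKM (fragments scaled to transcript length and library size) in Ctrl and 3.26, 7.56 and 2.43 in F-cKO replicates 1 to 3, so F-cKO replicate 2 lay nearest to Ctrl. In Ribo-seq, Fto was 17.6 to 25.9 RPKM (the same for single reads) in Ctrl and 2.11 to 4.04 in F-cKO. Mettl3 was higher in M-cKO than in Ctrl by RNA-seq (7.82 to 8.61 against 5.07 to 6.43 FPKM) and lower by Ribo-seq (6.02 to 6.78 against 9.16 to 9.93 RPKM). The knockouts remove exon 3 of Fto and exons 2 and 3 of Mettl3, and gene counts include the exons that stay, so the RNA-seq level of Mettl3 does not check its label. Radial glia and postmitotic neuron markers, the cell types of the labelled tissue, were detected in all libraries, and no marker of any list was at 0 throughout. In Ribo-seq, F-cKO replicate 2 stood apart: the summed level of 8 endoplasmic reticulum chaperones was 1458 RPKM there and 172 to 262 in the other libraries, and that of 6 endothelial markers was 86.2 RPKM against 4.35 to 8.997. The main Ribo-seq and TE values of F-cKO are therefore also given without it.

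In Ctrl cortices Cdk4 was by far the most abundant of the genes, and the D-type cyclins were dominated by Ccnd2. Cdk4 measured 129.8 ± 10.3 FPKM (SD, n = 3), Cdkn1b 43.2 ± 3.25 and Ccnd2 39.4 ± 5.69. Rb1 followed at 9.98 ± 0.856 FPKM, E2f1 at 8.44 ± 1.52, Ccnd1 at 5.56 ± 0.782, Ccnd3 at 3.86 ± 0.522, Cdk6 at 3.66 ± 0.419, Ccne2 at 3.49 ± 0.315 and Ccne1 at 2.46 ± 0.555. In this order the ranges of the 3 libraries overlapped between Cdkn1b and Ccnd2, between Rb1 and E2f1, between Ccnd3 and Cdk6, and between Cdk6 and Ccne2, and the other neighbours did not overlap. Cdk4, which encodes 1 of the 2 alternative partners of D-type cyclins, thus exceeded Cdk6 in every library, and Cdk6 made up 2.63% to 2.88% of their summed FPKM.

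Ribosome-protected fragments put the same 4 genes at the top and reordered the others. Cdk4 was at 269 ± 42.4 RPKM (SD, n = 3), Ccnd2 at 74.0 ± 6.39, Cdkn1b at 60.4 ± 0.383 and Rb1 at 25.6 ± 2.30. Ccnd1 was at 12.5 ± 0.920 RPKM, Cdk6 at 5.84 ± 0.680, Ccnd3 at 4.75 ± 1.06, Ccne2 at 4.66 ± 0.788, Ccne1 at 3.17 ± 0.216 and E2f1 at 2.99 ± 0.446. E2f1, ahead of Ccnd1 by RNA, was last here. The ranges of Cdk6 and Ccnd3, of Ccnd3 and Ccne2, and of Ccne1 and E2f1 overlapped. The translational efficiency (TE) level, the mean Ribo-seq RPKM over the mean RNA-seq FPKM, was 2.57 for Rb1, 2.24 for Ccnd1, 2.07 for Cdk4, 1.88 for Ccnd2 and 0.355 for E2f1 in Ctrl, against a median of 0.757 over 12952 genes with a mean of at least 1 FPKM.

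**Figure D1:**
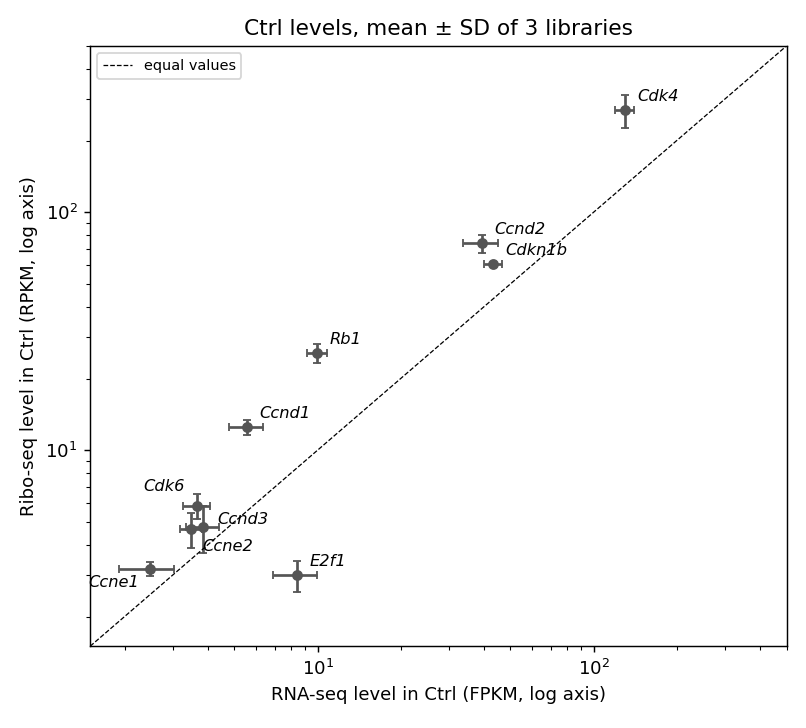
Levels of the 10 genes in Ctrl cortex, RNA-seq in FPKM on the horizontal axis and Ribo-seq in RPKM on the vertical axis, both logarithmic. Points are means and bars SDs of 3 libraries, and the dashed line marks equal values. Cdk4 sits at the top right (129.8 FPKM, 269 RPKM), and E2f1 is the gene below the line (8.44 FPKM, 2.99 RPKM).

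The comparison of F-cKO with Ctrl asks how transcript levels differ in cortex of mice with the demethylase gene deleted. Both knockouts also carry Emx1-cre, and the floxed lines a mixed strain background. These cannot be told apart from loss of the gene. By RNA-seq, 6 of the 10 genes rose in F-cKO and none fell: Ccnd1, Ccnd2, Cdk4, Cdk6, Ccne2 and Cdkn1b. Over all 16944 genes tested, 11.5% were called higher and 9.57% lower (adjusted p below 0.05, edgeR's quasi-likelihood test with Benjamini-Hochberg adjustment). The median log2 fold change of the 10 genes was 0.39, beside -0.01 over all genes tested, and 9 of them, all higher, had an unadjusted p under 0.05, as did 6044 of all genes (3081 higher and 2963 lower). Every F-cKO library lay above every Ctrl library for 9 of the 10, all but Ccnd3, and 25.2% of the 13513 genes with a mean of at least 1 FPKM did so. In bulk tissue, more cells of a type and more RNA per cell cannot be told apart.

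The comparison of M-cKO with Ctrl asks the same of the methyltransferase. By RNA-seq, 4 of the 10 genes rose (Ccnd1, Ccnd2, Ccne1 and E2f1) and 1 fell (Cdk6), where 15.5% of 16968 genes were called higher and 14.1% lower. The median log2 fold change of the 10 was 0.07, beside -0.01 over all genes. The M-cKO range lay wholly above that of Ctrl for the 4 genes that rose (26.2% of all genes at this level did so) and below them for Cdk6 and Cdkn1b (22.1%). Both comparisons use the same 3 Ctrl libraries.

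**Figure D2:**
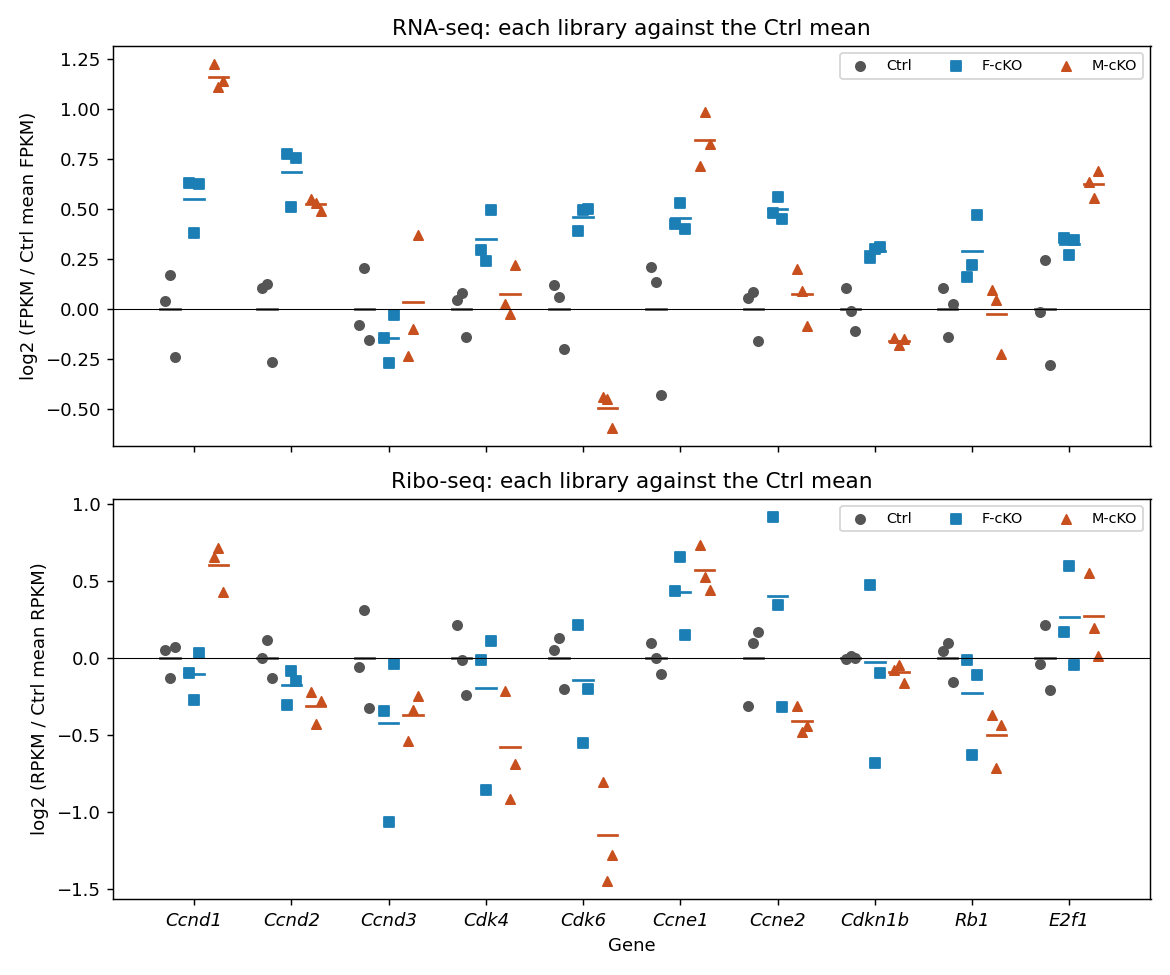
Each library of each gene as the log2 ratio of its FPKM (RNA-seq, top) or RPKM (Ribo-seq, bottom) to the Ctrl mean. Points are libraries and short lines group means. In RNA-seq the 3 M-cKO libraries of Ccnd1 lie above all other libraries (12.0 to 13.0 FPKM) and those of Cdk6 below all others (2.42 to 2.71 FPKM).

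Among the D-type cyclins, Ccnd1 rose in both knockouts and most in M-cKO. Its FPKM was 5.71, 6.25 and 4.71 in Ctrl, 8.60, 7.25 and 8.58 in F-cKO, and 13.0, 12.0 and 12.3 in M-cKO. The 3 groups did not overlap, with M-cKO highest. The log2 fold change was 0.54 ± 0.11 (SE) for F-cKO (adjusted p = 0.0122) and 1.15 ± 0.10 for M-cKO (adjusted p = 2.86e-05), where 98.7% of genes had a lower value. Compared directly, Ccnd1 was higher in M-cKO than in F-cKO by 0.60 ± 0.08 on the log2 scale (adjusted p = 0.000783), and these 3 calls held in each alternative run on them.

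Ccnd2, the most abundant D-type cyclin, rose in both knockouts. Its FPKM was 42.4, 42.9 and 32.8 in Ctrl, 67.5, 56.2 and 66.6 in F-cKO, and 57.6, 57.0 and 55.3 in M-cKO. No knockout library reached down to the highest Ctrl library. The log2 fold change was 0.68 ± 0.11 for F-cKO (adjusted p = 0.00465) and 0.52 ± 0.09 for M-cKO (adjusted p = 0.0017), and the difference between the knockouts, -0.17 ± 0.08, did not pass (adjusted p = 0.126). Ccnd3 had log2 fold changes of -0.16 ± 0.11 and 0.03 ± 0.15 (adjusted p = 0.342 and 0.906), with overlapping libraries from 3.20 to 4.98 FPKM in all groups.

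The make-up of the D-type cyclin pool differed between groups as well. Such a share is computed within a library and does not depend on library scaling. Ccnd1 was 11.04% to 11.7% of the summed D-type cyclin FPKM (Ctrl), against 10.8% to 10.9% for F-cKO and 16.5% to 17.6% for M-cKO. By Ribo-seq RPKM the Ccnd1 share was 11.7% to 15.5% (Ctrl), 12.5% to 15.5% (F-cKO) and 20.5% to 25.8% (M-cKO). In both assays all M-cKO libraries lay above the others. The summed FPKM of the 3 genes was 41.0 to 53.6 (Ctrl), 66.6 to 79.6 (F-cKO) and 72.6 to 73.9 (M-cKO), whereas their summed RPKM was 84.4 to 97.6, 75.3 to 84.1 and 79.2 to 86.3, with overlap of M-cKO and Ctrl. Without F-cKO replicate 2, whose Ribo-seq Ccnd1 share was 12.5%, the other F-cKO libraries had shares of 15.5% and 15.2%.

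The CDK partners behaved differently from each other. Cdk6 had 3.98, 3.82 and 3.19 FPKM in Ctrl, 4.80, 5.17 and 5.18 in F-cKO, and 2.71, 2.69 and 2.42 in M-cKO. The groups did not overlap, and the knockouts lay on opposite sides of Ctrl. Cdk6 rose in F-cKO by 0.45 ± 0.09 on the log2 scale (adjusted p = 0.00801) and fell in M-cKO, at -0.50 ± 0.09 (adjusted p = 0.00208). Between the knockouts it differed by -0.96 ± 0.07 (adjusted p = 5.42e-05), rank 18 by p of 16802 genes. These calls too held in every alternative run on them.

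Cdk4 rose in F-cKO alone of the comparisons with Ctrl. Its FPKM was 134, 137 and 118 in Ctrl, 159, 153 and 183 in F-cKO, and 132, 128 and 151 in M-cKO. The F-cKO libraries were all above Ctrl, and the M-cKO libraries overlapped Ctrl and lay below F-cKO. The log2 fold change was 0.34 ± 0.08 for F-cKO (adjusted p = 0.021) and 0.07 ± 0.08 for M-cKO (adjusted p = 0.555). The direct difference, M-cKO against F-cKO, was -0.28 ± 0.09 (adjusted p = 0.0401), a call lost in 4 of 11 alternatives (adjusted p up to 0.156). The F-cKO call was lost without Ctrl replicate 3 (0.28 ± 0.09, adjusted p = 0.0808) and with the replicate number as a block (0.34 ± 0.10, adjusted p = 0.0615). Cdk6 was 2.75% to 3.26% of the summed Cdk4 and Cdk6 FPKM (F-cKO) or 1.58% to 2.06% (M-cKO), the latter below the Ctrl range given above.

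The E-type cyclins, which activate CDK2 late in G1, split by knockout. Ccne1 had 2.85, 2.71 and 1.83 FPKM in Ctrl, 3.30, 3.56 and 3.25 in F-cKO, and 4.04, 4.87 and 4.37 in M-cKO. It rose in M-cKO (log2 fold change 0.83 ± 0.17, adjusted p = 0.00404), and its value in F-cKO, 0.44 ± 0.18, did not pass (adjusted p = 0.105) although the libraries did not overlap. Ccne2 had 3.64, 3.71 and 3.13 FPKM in Ctrl, 4.88, 5.16 and 4.78 in F-cKO, and 4.02, 3.73 and 3.30 in M-cKO. It rose in F-cKO (0.49 ± 0.11, adjusted p = 0.0131), with overlap of M-cKO and Ctrl (0.07 ± 0.12, adjusted p = 0.727). Directly compared, M-cKO was higher for Ccne1 (0.38 ± 0.13, adjusted p = 0.0479) and lower for Ccne2 (-0.43 ± 0.11, adjusted p = 0.0161). The first of these was lost in 10 of 11 alternatives (adjusted p up to 0.161). Ccne1 was 36.8% to 43.9% of the summed E-type cyclin FPKM (Ctrl), against 40.4% to 40.8% for F-cKO and 50.1% to 57.0% for M-cKO.

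**Figure D3:**
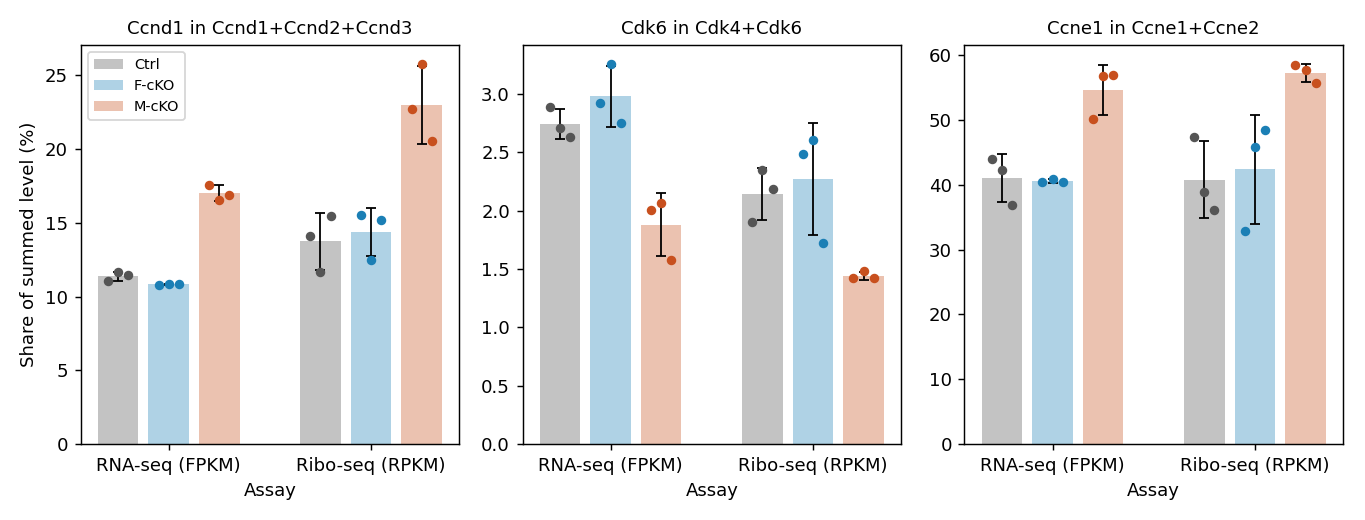
Share of Ccnd1 in the summed D-type cyclins, of Cdk6 in Cdk4 plus Cdk6, and of Ccne1 in Ccne1 plus Ccne2, in percent of FPKM (RNA-seq) or RPKM (Ribo-seq). Bars are means, error bars SDs and points the 3 libraries of a group. In both assays the M-cKO libraries lie apart from Ctrl in all 3 panels, above for Ccnd1 and Ccne1 and below for Cdk6.

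Cdkn1b, whose protein p27 binds and inhibits cyclin-CDK complexes, rose in F-cKO. It had 46.5, 43.0 and 40.1 FPKM in Ctrl, 51.5, 53.2 and 53.7 in F-cKO, and 39.1, 38.1 and 38.9 in M-cKO. F-cKO lay above and M-cKO below Ctrl without overlap, by 0.28 ± 0.06 (adjusted p = 0.0164) and -0.17 ± 0.06 (adjusted p = 0.0664), so that the second did not pass. The difference between the knockouts passed, at -0.46 ± 0.06 (adjusted p = 0.000556).

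At the restriction point itself, E2f1 rose in M-cKO, and E2f1 in F-cKO and Rb1 in both knockouts did not pass against Ctrl by RNA-seq. E2f1 had 8.35, 10.002 and 6.96 FPKM in Ctrl, 10.8, 10.2 and 10.7 in F-cKO, and 13.1, 12.4 and 13.6 in M-cKO. Its log2 fold change was 0.62 ± 0.11 in M-cKO (adjusted p = 0.00236) and 0.31 ± 0.12 in F-cKO (adjusted p = 0.0927), and M-cKO exceeded F-cKO by 0.29 ± 0.07 (adjusted p = 0.0155). Rb1 had 10.7, 9.05 and 10.2 FPKM in Ctrl, 11.2, 11.6 and 13.9 in F-cKO, and 10.7, 10.3 and 8.53 in M-cKO. The Rb1 values were 0.28 ± 0.09 for F-cKO (adjusted p = 0.0599) and -0.03 ± 0.09 for M-cKO (adjusted p = 0.837), and M-cKO against F-cKO gave -0.32 ± 0.10 (adjusted p = 0.0411), a call lost in 6 of 11 alternatives (adjusted p up to 0.155). Both F-cKO values lay near the threshold, and each was called higher in 3 of 11 alternatives. For Rb1 these were DESeq2, no filter on low counts and the fit without F-cKO replicate 1 (adjusted p = 0.0301, 0.0051 and 0.0384). For E2f1 they were no filter, all 9 libraries in 1 fit and the fit without Ctrl replicate 2 (adjusted p = 0.016, 0.0475 and 0.0229).

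Set directly against each other by RNA-seq, M-cKO was higher than F-cKO for 3 of the 10 genes (Ccnd1, Ccne1 and E2f1) and lower for 5 (Cdk4, Cdk6, Ccne2, Cdkn1b and Rb1), where 13.1% of 16802 genes were called higher and 14.3% lower. Of these 8, the calls of Ccnd1, Cdk6 and Cdkn1b held in each of 11 alternatives, while those of Ccne2 and E2f1 were lost in 3 and 2 of them, both without F-cKO replicate 2 (adjusted p = 0.0769 and 0.0643).

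Among the Ctrl libraries, replicate 3 had the lowest RNA-seq level for 9 of the 10 genes, all but Rb1, and it carried weight in the F-cKO comparison. Without it, 3 of the 10 (Ccnd1, Ccnd2 and Cdk6) were called higher in F-cKO, and Cdk4, Ccne2 and Cdkn1b were not. Without F-cKO replicate 2, the library with the highest Fto of its group, Ccne2 and Cdkn1b were not called either (adjusted p = 0.053 and 0.0585). In Ctrl replicate 3 the summed level of 6 IP markers was lowest, at 126 FPKM against 193 and 212 in the other Ctrl libraries.

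Some markers of cell types also moved with the groups. Over all genes tested by RNA-seq, 11.5% were called higher and 9.57% lower in F-cKO, and 15.5% and 14.1% in M-cKO. Between the knockouts the shares were 13.1% and 14.3%. All 6 IP markers rose in F-cKO and 3 of 6 in M-cKO, with a summed level of 126 to 212 FPKM (Ctrl), 260 to 317 (F-cKO) and 231 to 272 (M-cKO). For 8 radial glia markers 4 rose and 2 fell in F-cKO, and 3 rose and 2 fell in M-cKO. Their sums were 762 to 851 FPKM (Ctrl), 721 to 783 (F-cKO) and 560 to 602 (M-cKO). Their median log2 fold changes were 0.43 in F-cKO and 0.12 in M-cKO, so sum and median differed in direction. Of 8 postmitotic neuron markers 3 rose and 2 fell in F-cKO, and 3 rose and 3 fell in M-cKO. All 8 ganglionic eminence markers rose in M-cKO and 4 of 8 in F-cKO. The ganglionic eminence sums were 86.9 to 88.2 FPKM (Ctrl), 83.7 to 115 (F-cKO) and 123 to 167 (M-cKO). Of 6 meningeal markers 3 fell in F-cKO, with sums of 11.8 to 22.2 FPKM in Ctrl and 2.97 to 9.78 in F-cKO. In F-cKO the summed level of 6 endothelial markers also lay below Ctrl without overlap (36.4 to 41.9 against 48.6 to 52.3 FPKM). That of 6 erythroid markers did so too (324 to 402 against 432 to 795 FPKM). In each list only 1 marker was called lower, and the median log2 fold changes were 0.01 and -0.49. Between the knockouts, M-cKO was higher for 7 of 8 ganglionic eminence, 4 of 6 erythroid and 3 of 6 meningeal markers, and lower for 4 of 8 radial glia (1 higher), 2 of 6 IP and 3 of 8 postmitotic neuron markers. The part of these markers' cells in the results on the 10 genes was not tested.

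**Figure D4:**
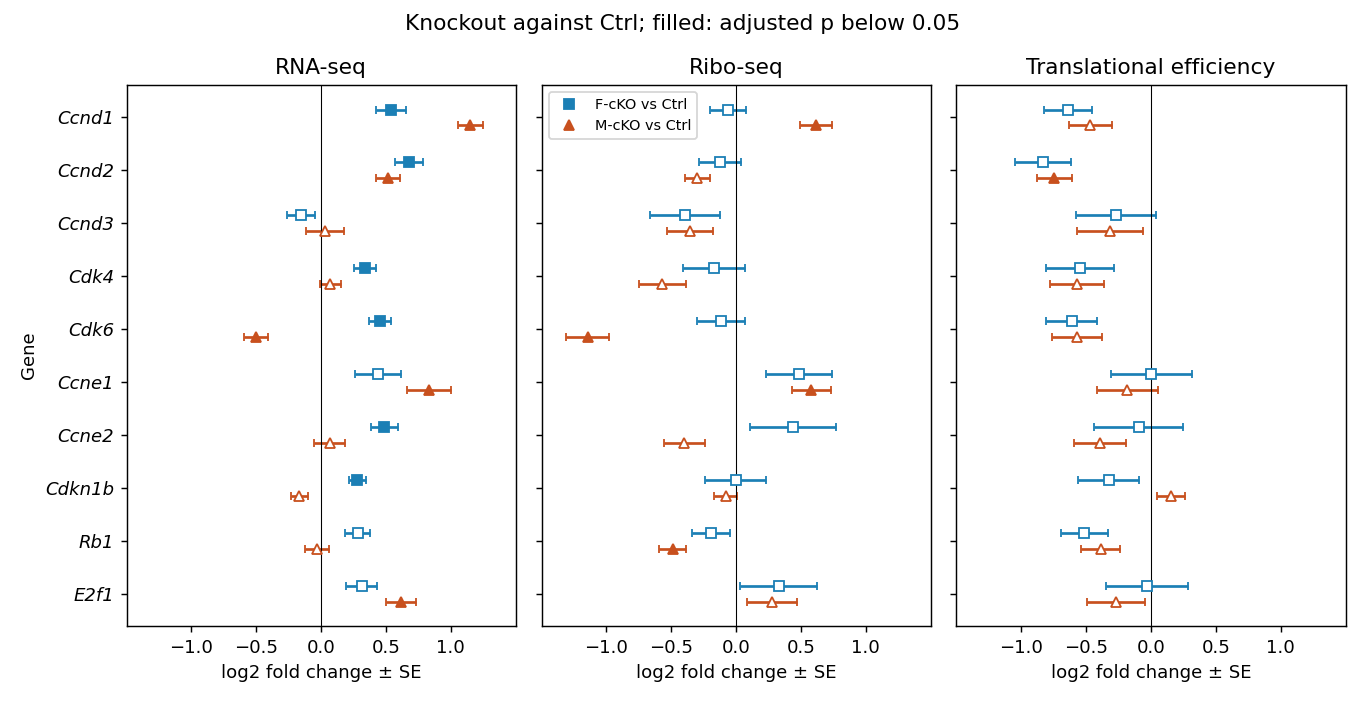
Log2 fold change ± SE of the 10 genes in F-cKO (squares) and M-cKO (triangles) against Ctrl, for RNA-seq, Ribo-seq and translational efficiency. Filled symbols passed an adjusted p below 0.05. In RNA-seq these are 6 squares and 5 triangles, in Ribo-seq 4 triangles, and in translational efficiency the triangle of Ccnd2.

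Ribo-seq counts ribosome-protected fragments and so asks whether the changes reach ribosome-bound mRNA. In F-cKO none of the 10 genes was called, with 0% of all 14335 genes called by edgeR (318 at an unadjusted p under 0.05, none of the 10 among them, and 6 called by DESeq2). The median log2 fold change of the 10 was -0.09, beside 0.05 over all genes, and it was 0.01 without F-cKO replicate 2. Ccnd2 had 74.1, 80.3 and 67.6 RPKM in Ctrl and 59.8, 69.9 and 66.7 in F-cKO, with a log2 fold change of -0.12 ± 0.16 (adjusted p = 0.793). Only F-cKO replicate 2, the library that stood apart, reached into the Ctrl range, and without it the value was -0.25 ± 0.12 (adjusted p = 0.875). Cdk4 had 312, 266 and 227 RPKM in Ctrl and 266, 149 and 290 in F-cKO, the lowest value in replicate 2. Without F-cKO replicate 2 its log2 fold change went from -0.17 ± 0.24 to 0.03 ± 0.15 (adjusted p = 0.976), and that of Cdkn1b from -0.0032 ± 0.23 to 0.19 ± 0.16 (adjusted p = 0.875). Ccne1 alone had all F-cKO libraries above all Ctrl libraries (3.51 to 4.995 against 2.95 to 3.39 RPKM), as had 3.03% of the 12460 genes with a mean of at least 1 RPKM, and did not pass (0.49 ± 0.26, adjusted p = 0.73). Its highest value was that of replicate 2, without which the log2 fold change was 0.27 ± 0.19 (adjusted p = 0.875). Without this library, the values of the remaining 6 genes lay between -0.20 for Ccnd3 and 0.39 for Ccne2, and none of the 10 was called.

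Of the 10 genes, 2 rose in M-cKO by Ribo-seq (Ccnd1 and Ccne1) and 2 fell (Cdk6 and Rb1), where 7.13% of 14314 genes were called higher and 7.5% lower. Ccnd1 had 12.9, 11.4 and 13.1 RPKM in Ctrl and 19.6, 20.4 and 16.7 in M-cKO, and it rose by 0.62 ± 0.12 on the log2 scale (adjusted p = 0.0212). Ccne1 had 3.39, 3.16 and 2.95 RPKM in Ctrl and 5.27, 4.55 and 4.30 in M-cKO, a log2 fold change of 0.58 ± 0.15 (adjusted p = 0.0419). Neither gene overlapped between groups, and both had also risen by RNA-seq.

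Cdk6 showed the strongest decrease of the 10 in ribosome-protected fragments. It had 6.04, 6.39 and 5.08 RPKM in Ctrl and 3.35, 2.14 and 2.40 in M-cKO, and its log2 fold change was -1.14 ± 0.17 (adjusted p = 0.0103), with 1.61% of genes lower. Rb1, which restrains E2F factors, had 26.4, 27.5 and 23.1 RPKM in Ctrl and 19.8, 15.7 and 19.0 in M-cKO, at -0.49 ± 0.10 (adjusted p = 0.0256). For both genes M-cKO lay below Ctrl without overlap. Cdk4 had 232, 143 and 167 RPKM in M-cKO, overlapping Ctrl, at -0.57 ± 0.18 (adjusted p = 0.0711). DESeq2 called Cdk4 and Ccnd2 lower as well (adjusted p = 0.0107 and 0.0372). The ranges were below Ctrl for 5 of the 10 genes (Ccnd2, Cdk6, Ccne2, Cdkn1b and Rb1) and above it for 2, where 20.6% and 19.5% of genes at this level did so.

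Leaving out 1 library could end these Ribo-seq calls with little change in the values. Without Ctrl replicate 2 none of the 4 was called, at 0.55 ± 0.14 for Ccnd1, -1.08 ± 0.19 for Cdk6, 0.58 ± 0.19 for Ccne1 and -0.44 ± 0.12 for Rb1 (adjusted p from 0.0586 to 0.148). Cdk6 stayed called when any other single library was left out. Over 12 alternatives, Ccne1 and Rb1 were each lost in 7, Ccnd1 in 5 and Cdk6 in 2. With all 9 libraries in 1 fit, F-cKO replicate 2 included, none was called (adjusted p from 0.0743 for Cdk6 to 0.224 for Ccne1). In M-cKO 4 of 8 ganglionic eminence markers rose in Ribo-seq, with summed levels of 38.9 to 58.6 RPKM in Ctrl and 64.6 to 124 in M-cKO. Of 8 radial glia markers 1 rose and 1 fell there, with a median log2 fold change of 0.08. Their summed level, which the most abundant markers weigh on most, was lower without overlap. It was 1909 to 2156 RPKM in Ctrl and 1044 to 1479 in M-cKO. The part of either cell type in these results was not tested.

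Between the knockouts, Ribo-seq called 0% of 14262 genes by edgeR (1154 at an unadjusted p under 0.05, and 200 by DESeq2). Of the 10 genes, Cdk6 had the largest difference, at -1.01 ± 0.23 in M-cKO against F-cKO (adjusted p = 0.50), followed by Ccne2 at -0.82 ± 0.33 (adjusted p = 0.586) and Ccnd1 at 0.70 ± 0.16 (adjusted p = 0.50). These were the 3 of the 10 at an unadjusted p under 0.05, and DESeq2 called Cdk6 and Ccnd1 (adjusted p = 0.0247 and 0.0314). Without F-cKO replicate 2 the edgeR values were -1.11 ± 0.22 for Cdk6 (adjusted p = 0.229), -0.77 ± 0.34 for Ccne2 (adjusted p = 0.388) and 0.69 ± 0.16 for Ccnd1 (adjusted p = 0.272).

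The interaction of assay and genotype asks whether Ribo-seq and RNA-seq changed unequally, here called a change in TE. In M-cKO, Ccnd2 alone of the 10 passed, with lower TE, where 1.18% of 13208 genes were called lower and 1.89% higher. Ccnd2 rose by RNA-seq (0.52 ± 0.09) while its Ribo-seq value was -0.30 ± 0.09 (adjusted p = 0.0715), from 74.1, 80.3 and 67.6 RPKM in Ctrl to 63.4, 55.0 and 60.9 in M-cKO. The TE change was -0.74 ± 0.14 (adjusted p = 0.0165), rank 76 by p, and the TE level was 1.88 in Ctrl and 1.05 in M-cKO. Over 12 alternatives the value was -0.80 to -0.70. The call was kept in 7 of them, and was lost with all 18 libraries in 1 fit and without any 1 of Ctrl replicates 1 and 2 and M-cKO replicates 1 and 2 (adjusted p up to 0.157).

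The other TE values in M-cKO were mostly negative and did not pass in the main edgeR fit. They were -0.57 ± 0.21 for Cdk4 (adjusted p = 0.133), -0.57 ± 0.19 for Cdk6 (adjusted p = 0.111), -0.47 ± 0.16 for Ccnd1 (adjusted p = 0.122) and -0.39 ± 0.15 for Rb1 (adjusted p = 0.153). DESeq2 also called TE of Ccnd1 lower (adjusted p = 0.0488). Cdkn1b was the 1 gene of the 10 with a value above 0, at 0.16 ± 0.11 (adjusted p = 0.423). The median of the 10 was -0.39, beside 0.02 over all genes. Medians of the other cell cycle lists described below ran from -0.31 (G2 and M genes) to 0.19 (G1 CDK inhibitors). Those of the IP and radial glia markers were -0.36 and 0.05.

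In F-cKO 0% of 13225 genes were called for TE by edgeR (1228 at an unadjusted p under 0.05, 4 of the 10 genes among them, and 47 by DESeq2). Ccnd2 had the lowest value of the 10, at -0.83 ± 0.22 (adjusted p = 0.425), with a TE level of 1.03. DESeq2 called it (-0.85 ± 0.21, adjusted p = 0.0244). Without F-cKO replicate 2 the edgeR value was -1.01 ± 0.18 (adjusted p = 0.247). The median of the 10 was -0.42 (-0.34 without that library), beside -0.01 over all genes. Medians of the other cell cycle lists ran from -0.38 (G2 and M genes) to -0.07 (G1 CDK inhibitors). Those of the IP and radial glia markers were -0.36 and -0.14. The TE comparisons of both knockouts share their 6 Ctrl libraries.

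Other genes of the G1 and cell cycle machinery were described from lists that hold none of the 10. Of 4 further G1 CDK inhibitors tested, 3 rose by RNA-seq in M-cKO (15.5% over all genes) and none in F-cKO (11.5%), with medians of 0.54 and 0.04. Those in M-cKO were Cdkn1a (p21; 1.03 ± 0.12, adjusted p = 0.000139), Cdkn2d (p19INK4d; 0.55 ± 0.07, adjusted p = 0.000276) and Cdkn2c (p18INK4c; 0.53 ± 0.08, adjusted p = 0.000968), and the remaining gene was Cdkn1c (p57; 0.04 ± 0.14, adjusted p = 0.86). All 3 were also higher in M-cKO than in F-cKO (adjusted p = 0.00125, 0.000829 and 0.0351). By Ribo-seq Cdkn2d (0.66 ± 0.11, adjusted p = 0.0133) and Cdkn2c (1.08 ± 0.30, adjusted p = 0.0491) rose in M-cKO. Cdkn2a and Cdkn2b were too low to be tested.

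Of 13 pocket protein, E2F and DP family genes, 8 rose in F-cKO by RNA-seq, 4 rose in M-cKO and none fell, with medians of 0.35 and 0.18. Over all genes, 11.5% were called higher in F-cKO, against 15.5% in M-cKO. Those of F-cKO were led by Tfdp2, an E2F dimer partner (0.60 ± 0.09, adjusted p = 0.00412), the activator E2f3 (0.62 ± 0.10, adjusted p = 0.00469) and the repressor E2f7 (0.77 ± 0.13, adjusted p = 0.00536). In M-cKO they were led by E2f3 (0.69 ± 0.09, adjusted p = 0.000271), the activator E2f2 (0.86 ± 0.16, adjusted p = 0.00248) and Tfdp2 (0.41 ± 0.09, adjusted p = 0.00522). By Ribo-seq E2f2 (1.52 ± 0.25, adjusted p = 0.0145) and E2f3 (0.60 ± 0.11, adjusted p = 0.0178) rose in M-cKO.

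The CDK2 module comprises CDK2, its activators and the machinery that turns over p27 and cyclins. Of its 14 genes tested by RNA-seq, 4 rose and 1 fell in F-cKO (11.5% and 9.57% over all genes), and 2 rose and 2 fell in M-cKO (15.5% and 14.1%, near the shares of the module), with medians of 0.10 and 0.08. Cdk2 rose in both, by 0.51 ± 0.13 for F-cKO (adjusted p = 0.0267) and 0.49 ± 0.12 for M-cKO (adjusted p = 0.0102). Myc, a transcription factor that promotes G1 progression, fell in F-cKO (-0.39 ± 0.11, adjusted p = 0.0362), and Ccnh, the cyclin of the CDK-activating kinase, fell in M-cKO by RNA-seq (-0.42 ± 0.08, adjusted p = 0.0029) and Ribo-seq (-0.46 ± 0.09, adjusted p = 0.0201). Gsk3b and Cul1 rose in F-cKO (0.41 ± 0.07 and 0.31 ± 0.07, adjusted p = 0.00535 and 0.0185), Cks1b rose in M-cKO (0.41 ± 0.10, adjusted p = 0.00877), and Skp1a fell there (-0.25 ± 0.06, adjusted p = 0.00847).

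Downstream of the restriction point, most of the listed S-phase and mitotic genes were called higher in each knockout by RNA-seq. Over all genes, 11.5% were called higher in F-cKO and 15.5% in M-cKO. Of 20 E2F target S-phase genes, 17 rose in F-cKO, 14 rose in M-cKO and none fell, with medians of 0.54 and 0.41. The replication helicase genes Mcm5 (0.72 ± 0.09), Mcm2 (0.78 ± 0.10) and Mcm3 (0.88 ± 0.13) led in F-cKO (adjusted p = 0.00293, 0.00293 and 0.004). Tk1, thymidine kinase (1.34 ± 0.12), Mcm5 (0.74 ± 0.10) and Fen1, a flap endonuclease (1.25 ± 0.17), led in M-cKO (adjusted p = 4.42e-05, 0.000304 and 0.000378). Of 16 G2 and M genes, all 16 rose in F-cKO and 13 in M-cKO, with medians of 0.79 and 0.56, led by Top2a (0.98 ± 0.12, adjusted p = 0.00293), Mki67 (0.95 ± 0.12, adjusted p = 0.00293) and Bub1 (0.94 ± 0.12, adjusted p = 0.00338) in F-cKO and by Cenpf (0.75 ± 0.08, adjusted p = 0.000104), Mki67 (0.81 ± 0.10, adjusted p = 0.000163) and Cenpe (0.60 ± 0.09, adjusted p = 0.000814) in M-cKO. By Ribo-seq, where 7.13% of all genes were called higher in M-cKO, 4 of the 20 and 5 of the 16 rose and none fell, Tk1 (1.26 ± 0.15, adjusted p = 0.00569) and Mki67 (0.79 ± 0.12, adjusted p = 0.0122) first. The RNA-seq rises in these lists came beside those of IP markers, whose summed levels are given above and whose part in them was not tested.

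**Figure D5:**
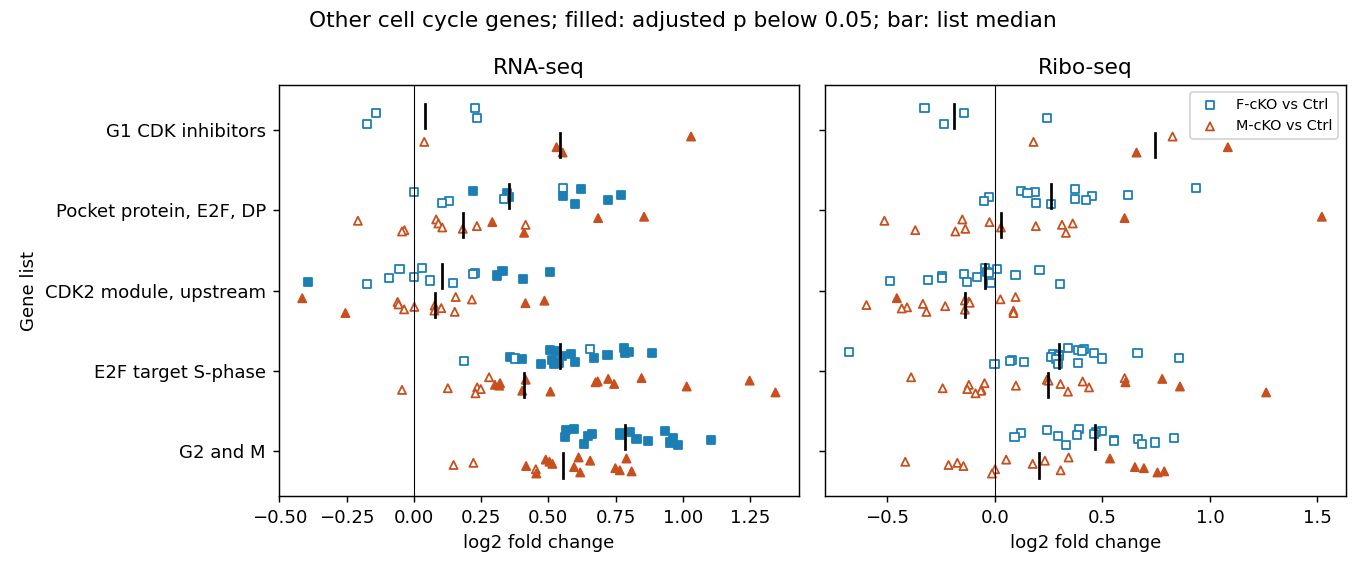
Log2 fold change of each gene of 5 cell cycle lists in F-cKO (squares) and M-cKO (triangles) against Ctrl, for RNA-seq (left) and Ribo-seq (right). Filled symbols passed an adjusted p below 0.05 and black bars are list medians. In RNA-seq all 16 G2 and M genes of F-cKO are filled and to the right of 0, and no G1 CDK inhibitor of F-cKO is filled.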

How the data were processed

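RNA-seq and Ribo-seq were made from E15.5 cortices, and libraries were grouped by the genotype and assay in their labels. For RNA-seq, the authors aligned paired-end reads with HISAT2 2.0.5 and deposited counts per gene and FPKM values. The counter, its strand setting and the annotation are not given in the sources used here. For Ribo-seq, mapping by the authors used TopHat2 and gene counting HTSeq, and they deposited counts and RPKM values made from gene length and mapped reads. The Ribo-seq count table is blank in 8 of 9 libraries for 40490 of 54838 genes, and the 14348 complete genes, which include all 10 members, were used. The submitters' processing notes name mm10 and also DESeq2 1.14.1. Symbols came from the reference tables given with the files (54723 of 55153 IDs matched), and positions and promoters from RefSeq GRCm38.p6.

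FPKM and RPKM were used as deposited for levels and shares. Counts were fitted in R 4.3.3 with edgeR 4.0.16 (filterByExpr with a minimum count of 10 and total of 15, TMM, quasi-likelihood test), each comparison over its own 6 libraries, and TE as the interaction of assay and genotype over 12 libraries for genes passing the filter in both assays. P values were adjusted by Benjamini-Hochberg over all genes tested, and called at an adjusted p below 0.05. The scripts were tested on simulated data. Alternatives were DESeq2 1.42.0, RLE scaling, no filter, a replicate block, all libraries of an assay in 1 fit, protein-coding genes only (Ribo-seq and TE), each library left out in turn, and medians for levels. Tables and plots used Python 3.11.15 with pandas 2.3.3 and matplotlib 3.10.9. No pair of libraries was identical.

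All 10 members were reported in every comparison. Other lists were given by counts and medians, with up to 3 called genes of smallest p in each direction named, and for the most abundant D-type cyclin and CDK the 3 genes with the most similar RNA-seq pattern. Members and lists were chosen with earlier results of these data known. RNA-seq totals differed 1.22-fold and Ribo-seq totals 3.27-fold between libraries, so the precision of Ribo-seq values varies more between libraries.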

Additional observations from a re-analysis of the deposited data

Results flagged for a closer look

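The knockout effects on Cdk6 RNA differed in sign. The gene was called higher in F-cKO (0.45 ± 0.09 on the log2 scale) and lower in M-cKO (-0.50 ± 0.09), and the direct comparison of the knockouts gave -0.96 ± 0.07 (adjusted p = 5.42e-05), lower in 3 of 3 M-cKO libraries than in any F-cKO library. The comparisons with Ctrl share the Ctrl libraries, and the direct comparison does not use them.

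The effect of M-cKO on Ccnd2 differed between assays. It was 0.52 ± 0.09 in RNA-seq and -0.30 ± 0.09 in Ribo-seq, and the interaction was -0.74 ± 0.14 (adjusted p = 0.0165). All 3 M-cKO libraries lay above Ctrl in RNA-seq and below Ctrl in Ribo-seq. Over 12 alternatives its value was -0.80 to -0.70. The call was lost without any 1 of Ctrl replicates 1 and 2 and M-cKO replicates 1 and 2, and with all 18 libraries in 1 fit (adjusted p up to 0.157).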

How the results depend on the processing

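Of 24 called values of the 10 genes, 11 kept their call in every alternative run on them, and none changed sign. The 29 sign changes were all of values that were not called and were at most 0.27 in size. Of the counts of calls, 114 of those outside the leave-one-out fits stayed within 1.5 times of the main count and 21 did not. In the leave-one-out fits 106 did and 38 did not. The 114 and the 106 include many counts of 0 that stayed 0, which say little about stability. Of the values not called, 9 were called in at least 1 alternative, each in at most 3. For levels, medians in place of means say nothing about stability, since a median lies within 1 SD of its mean. Except where stated, the cause of a change was not tested.

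The replicate numbers showed no consistent pairing across genotypes within an assay, where deviations of same-numbered libraries correlated between -0.28 and 0.16. Same-numbered RNA-seq and Ribo-seq libraries of a group were not checked in this way. With the replicate block, 2145 genes were called in F-cKO by RNA-seq (3576 without it), 1313 in M-cKO by Ribo-seq (2093) and 172 in M-cKO for TE (405). Of the 10 genes, the block ended the calls of Cdk4 in F-cKO by RNA-seq (adjusted p = 0.0615), of Ccne1 and Rb1 between the knockouts by RNA-seq (0.0654 and 0.102), and of Ccne1 and Rb1 in M-cKO by Ribo-seq (0.0771 and 0.0508), where Cdk4 was called lower instead (0.0372), so 1 in place of 2 was called higher there. The block also turned the TE value of Ccne1 in F-cKO to -0.043 and the Ribo-seq value of E2f1 between the knockouts to 0.0044.

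DESeq2 called 6 genes in F-cKO and 200 between the knockouts by Ribo-seq, and 47 in F-cKO and 1044 in M-cKO for TE, where edgeR called 0, 0, 0 and 405. Of the 10 genes it called 4 lower in M-cKO by Ribo-seq in place of 2, 1 higher and 1 lower between the knockouts in place of 0, 1 with lower TE in F-cKO in place of 0 (Ccnd2), and 2 in M-cKO in place of 1. With all libraries of an assay in 1 fit, Ribo-seq called 1 gene in F-cKO, 35 in M-cKO and 25 between the knockouts. With all 18 libraries, TE called 11 in M-cKO. None of the 10 was then called in M-cKO by Ribo-seq (0 higher, 0 lower) or for TE (0), and 1 in place of 3 was called higher in M-cKO than in F-cKO by RNA-seq. TE of Ccne1 in F-cKO (0.0032) became -0.027 with DESeq2 and -0.017 with RLE scaling. With protein-coding genes only, Cdkn1b in F-cKO by Ribo-seq became 0.0018 and TE of E2f1 in F-cKO became 0.029.

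Leaving out 1 library gave 1543 (without Ctrl replicate 3) to 3474 genes in F-cKO by RNA-seq, with 3 to 7 of the 10 genes higher. In M-cKO by RNA-seq, 1 to 2 of the 10 were lower. Between the knockouts by RNA-seq, 2767 (without F-cKO replicate 2) to 4566 genes were called in place of 4599, with 1 to 2 of the 10 higher and 2 to 5 lower. By Ribo-seq, 0 to 1 genes were called in F-cKO, 177 (without Ctrl replicate 2) to 2547 in M-cKO, with 0 to 2 of the 10 higher and 0 to 2 lower, and 0 to 5 between the knockouts. For TE in M-cKO, 8 (without Ctrl replicate 2) to 662 genes were called, with 0 to 1 of the 10 lower. Values that changed sign spanned -0.16 to 0.15 for Ccnd3 and -0.091 to 0.071 for Rb1 in M-cKO by RNA-seq, and -0.014 to 0.31 for Ccnd3 between the knockouts. By Ribo-seq they spanned -0.30 to 0.026 for Cdk4 and -0.28 to 0.19 for Cdkn1b in F-cKO, and between the knockouts -0.13 to 0.24 for Ccnd3, -0.082 to 0.33 for Ccne1, -0.25 to 0.22 for Cdkn1b and -0.24 to 0.27 for E2f1. For TE in F-cKO they spanned -0.13 to 0.13 for Ccne1, -0.36 to 0.15 for Ccne2 and -0.31 to 0.14 for E2f1. Fewer libraries enter these fits, and an arm with 2 libraries shares its spread estimate with the other.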

Other observations

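The RNA-seq patterns most like those of Ccnd2 and Cdk4 over the 9 libraries were found by Pearson's r of log2(FPKM + 1). They were sought among 13349 genes with a gene symbol and a mean of at least 1 FPKM. The libraries share 3 groups and their depth, so r is a description. For Ccnd2 they were the pseudogene Gm8494 (r = 0.988), the mitotic kinase gene Pbk (r = 0.984) and Baz1a, a chromatin remodelling factor (r = 0.984). Pbk averaged 21.5 FPKM for Ctrl, 31.5 for F-cKO and 27.5 for M-cKO. For Cdk4 they were the histone deacetylase gene Hdac1 (r = 0.993), the glutaminyl-tRNA synthetase gene Qars (r = 0.985) and Prc1, a cytokinesis regulator (r = 0.974). Hdac1 averaged 20.7 FPKM for Ctrl, 27.0 for F-cKO and 21.8 for M-cKO. Among the 10 genes themselves, the pattern of Ccnd2 was nearest to that of E2f1 (r = 0.755) and farthest from that of Ccnd3 (r = -0.0742), and the pattern of Cdk4 was nearest to that of Cdkn1b (r = 0.75).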
